A study of Mus musculus with 16 samples.

Results

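The comparison described here is that of livers given fat-derived stem cells with livers given none, taken over both harvest times at once. It rests on 12 of the 16 samples of the series: 6 livers with stem cells and 6 without. All were chosen by their labels, and harvest time entered as a factor. The mice were female, of the C57Bl/6 strain, and every one of them, with or without stem cells, had received concanavalin A (300 µg), a lectin from plants whose activation of T cells inflames the liver acutely. The early livers with stem cells (mice 8, 9 and 10) came from mice given 100000 cells into the tail vein together with the lectin, and were taken at 2 h. The late livers with stem cells (mice 1, 2 and 3) came from mice given the same number of cells 3 h after the lectin, and were taken at 5 h. Their counterparts without stem cells were taken at 2 h (mice 11, 12 and 13) and at 5 h (mice 4, 5 and 6). In both schedules the cells had thus been in the animal for 2 h. The cells were expanded in culture from inguinal fat of C57Bl/6 mice, so that they were of the same strain as the hosts. No mouse without concanavalin A was measured, and the labels name no other cells or vehicle given to the mice without stem cells. The remaining 4 samples are hepatic inflammatory cells taken at 5 h.

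Concanavalin A hepatitis is driven by T cells and natural killer T cells, whose interferon-gamma acts on hepatocytes and macrophages. Interferon-gamma responders include the antigen-processing genes, the guanylate-binding proteins and Ciita, the master regulator of MHC class II genes. Type I interferons signal through a receptor of their own and induce a partly shared set of antiviral genes. Stem cells of fat stroma are known for suppressing T cell activation in culture, and were tested here as a treatment.

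Each liver was hybridised to 1 Agilent array, and a level is the log2 of the signal after division by the 75th percentile of that array, so that 0 is the brightness at that percentile. A difference is always livers with stem cells minus livers without. The shared change is the mean of the 2 h and the 5 h difference, and ± after a change is its standard error in the limma fit. Between 52.1% and 62.5% of spots lay well above background in livers with stem cells, against 54.2% to 60.3% in livers without. The arrays with stem cells were dimmer: the 75th percentile ran from 253 to 295 in 2 h livers with stem cells, against 327 to 358 in those without, and from 212 to 309 in 5 h livers with stem cells, against 284 to 333 in those without. Each of the 3 slides held 1 liver of each of the 4 groups. At 2 h, all livers with stem cells lay at position 2 of their slide and all livers without at position 1, so that position and group cannot be told apart at that time. A 2 h liver of each kind stood apart from the rest, mouse 10 with stem cells and mouse 13 without: the score of the chemokine list, the median over its genes of the value minus the gene's mean over the 12 livers, was -2.04 in mouse 10 and -2.60 in mouse 13, against -0.34 to 0.85 in the other 10 livers. Counts are therefore also given without these 2 livers. They were set aside for what an earlier look at these data had shown of their inflammatory genes, and the smaller set is no independent sample.

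In the mean of both times, livers with stem cells had lower levels of Trim34a and Ciita, 2 genes of the interferon system, and of the uncharacterised D330040H18Rik, and higher signals of Ptcra and Ifna5. Gimap5 passed as well, but its 2 probes disagreed in sign. These 6 of 14560 genes tested passed the shared test at an adjusted p under 0.05 (limma with Benjamini-Hochberg adjustment), or 0.0412% of them, with 3 higher and 3 lower (0.0206% each). Without adjustment 2182 genes (15%) had a p under 0.05. Of those, 1389 genes (9.54% of all tested) were higher and 793 (5.45% of all tested) lower with stem cells.

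Trim34a, an interferon-induced member of the tripartite motif family, had levels of -1.98, -1.99 and -1.80 in the 2 h livers with stem cells, against -0.25, -0.34 and -1.30 in those without. At 5 h it had -0.89, -0.90 and -0.69 in livers with stem cells, against 0.34, 0.69 and 0.65 without. The groups did not overlap at either time. The gene fell by 1.34 ± 0.18 in the shared test (0.395-fold, adjusted p = 0.0408), with a change of -1.29 ± 0.25 at 2 h and of -1.39 ± 0.25 at 5 h. Its probe lies on chromosome 7, 104210534 to 104210593 of build mm8. All 3 probes of the gene pointed the same way, at -1.34, -1.08 and -0.85, and closely related Trim34 copies may share their signal.

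Ciita, on chromosome 16 (10439788 to 10439847, mm8), had levels of -1.90, -1.85 and -2.36 in the 2 h livers with stem cells, against -0.71, -0.77 and -0.95 in those without. At 5 h the levels were -0.93, -0.62 and -0.93 with stem cells, against 0.14, -0.36 and 0.02 without. Here too the groups were separate at both times, and the treated 5 h livers stood where the untreated 2 h livers stood. Ciita fell by 1.00 ± 0.13 (0.502-fold, adjusted p = 0.0408). D330040H18Rik, on chromosome 16 (52190631 to 52190690, mm8), had levels of -3.25, -3.43 and -3.25 at 2 h with stem cells, against -1.87, -1.78 and -1.70 without. Its 5 h levels were -2.04, -2.09 and -1.86 with stem cells, against -1.43, -1.33 and -1.87 without, where the highest treated liver passed the lowest untreated one by a small margin. It fell by 0.99 ± 0.11 (adjusted p = 0.0249), mostly through the 2 h livers (-1.53 at 2 h, -0.45 at 5 h).

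**Figure D1:**
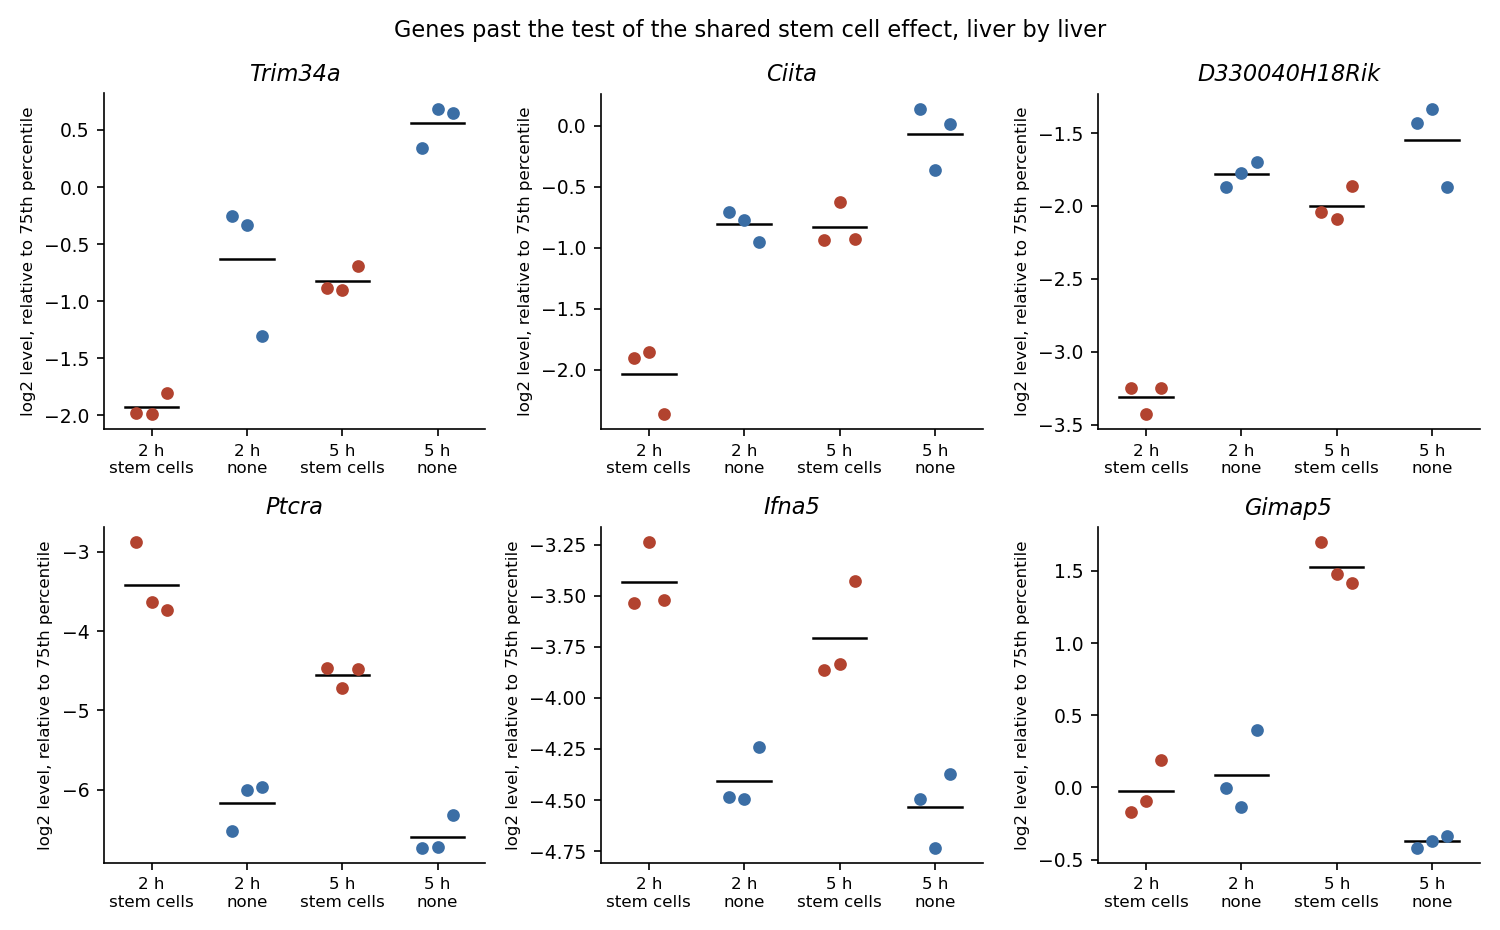
Levels of the 6 genes past the shared test in each of the 12 livers, on the log2 scale, scaled by the 75th percentile of each array; red points are livers with stem cells, blue points livers without, and bars are group means of 3. Trim34a and Ciita are lower with stem cells at both times with no overlap, while Gimap5 differs at 5 h only and Ptcra and Ifna5 lie near or below the detection limit in most livers.

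Ptcra, the alpha chain of the pre-T cell receptor of thymocytes, had the smallest p of all genes (shared change 2.39 ± 0.17, adjusted p = 0.00081; chromosome 17, 46219187 to 46219247, mm8). Its levels were -2.88, -3.64 and -3.73 in the 2 h livers with stem cells, against -6.52, -6.00 and -5.97 in those without. At 5 h they were -4.46, -4.72 and -4.47 with stem cells, against -6.72, -6.72 and -6.32 without. The probe was well above background only in the 3 treated 2 h livers, so its change is a bound: with stem cells Ptcra was higher at least 1.695-fold at 2 h. No fold is given at 5 h or over both times, because both 5 h groups were below background. Ifna5, a gene of the alpha interferon cluster on chromosome 4 (88307018 to 88307077, mm8), had levels of -3.54, -3.24 and -3.52 at 2 h with stem cells, against -4.49, -4.5 and -4.24 without. Its 5 h levels were -3.86, -3.84 and -3.43 with stem cells, against -4.49, -4.73 and -4.37 without. It was well above background in 5 of 6 livers with stem cells and in 0 of 6 without, and was at least 1.575-fold higher (adjusted p = 0.0408). Alpha interferon genes are near-identical copies, and the signal of this probe may come from more than 1 of them.

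Gimap5, a GTPase of lymphocytes, met the shared threshold through 1 time and 1 probe. Its levels were -0.17, -0.09 and 0.19 at 2 h with stem cells, against -0.002, -0.14 and 0.40 without, and the groups overlapped. At 5 h they were 1.70, 1.48 and 1.41 with stem cells, against -0.42, -0.37 and -0.33 without. The shared change was 0.90 ± 0.12 (adjusted p = 0.0408), made of -0.11 at 2 h and 1.90 at 5 h. The gene's other probe gave -0.52, and the mean of both probes 0.19 (adjusted p = 0.635), so no direction is given for Gimap5.

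Within each of slides 1, 2 and 3, the mean of the 2 h and 5 h differences was -1.44, -1.46 and -1.12 for Trim34a, and -1.10, -1.11 and -0.77 for Ciita. D330040H18Rik had -1.04, -0.95 and -0.97 within the slides. With the slide as a block the adjusted p was 0.0647 for Trim34a, Ciita, Ifna5 and Gimap5, and 0.0518 for D330040H18Rik, which misses the threshold of 0.05, while Ptcra kept its call at 0.0065. Leaving out 1 liver kept the direction of all 6 genes in each of the 12 cases, but the calls of Trim34a, Ifna5 and Gimap5 lasted only without mouse 13 or mouse 2, that of Ciita also without mouse 5, and that of D330040H18Rik also without mouse 5 or mouse 6. Ptcra kept its call in all 12 cases. With normexp correction and the 75th percentile the changes were 0.82 for Ptcra, 0.65 for Ifna5 and -0.06 for D330040H18Rik, against -0.76 for Trim34a and -0.46 for Ciita, each at an adjusted p of 0.338 but for D330040H18Rik at 0.906.

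The promoter windows of 3 genes are shown because they carry interferon motifs and belong to genes described here: Trim34a, which fell, Psmb8 of the interferon-gamma list, and Ifna5, whose signal was higher. They are RefSeq windows of build GRCm38.p6, from 250 bases before to 20 bases after the annotated start, 5′ to 3′ on the plus strand. Capitals mark the interferon-stimulated response element, which is GAAA and GAAA with 2 bases of any kind between them, on either strand, and the gamma-activated site, TTCNNNGAA. The windows lie at chr7:104244207-104244476 (Trim34a), chr17:34197945-34198214 (Psmb8) and chr4:88835275-88835544 (Ifna5).
Trim34a: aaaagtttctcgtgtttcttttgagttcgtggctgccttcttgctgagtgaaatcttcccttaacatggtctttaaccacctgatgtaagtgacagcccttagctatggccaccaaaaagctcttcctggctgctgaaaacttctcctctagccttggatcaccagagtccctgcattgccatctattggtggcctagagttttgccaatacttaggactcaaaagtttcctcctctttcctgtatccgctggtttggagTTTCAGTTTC
Psmb8: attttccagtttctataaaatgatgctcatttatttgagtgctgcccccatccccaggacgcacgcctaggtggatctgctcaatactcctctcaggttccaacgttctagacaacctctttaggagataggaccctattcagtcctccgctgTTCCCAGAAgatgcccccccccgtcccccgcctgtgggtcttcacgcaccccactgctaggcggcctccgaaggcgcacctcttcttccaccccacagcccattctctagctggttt
Ifna5: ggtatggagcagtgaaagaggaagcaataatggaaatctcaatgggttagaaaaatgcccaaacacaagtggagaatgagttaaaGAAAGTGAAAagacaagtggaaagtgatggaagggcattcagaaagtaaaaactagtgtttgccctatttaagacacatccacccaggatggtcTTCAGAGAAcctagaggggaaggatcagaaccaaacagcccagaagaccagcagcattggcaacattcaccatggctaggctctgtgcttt

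Trim34a thus holds the response element just after its start, Psmb8 a gamma-activated site, and Ifna5 one of each. The windows shown were picked for their motifs. Among other genes described here, the windows of Herc6, Gimap5 and Ptcra held neither motif. Isg20 held a gamma-activated site in 1 window and neither motif in its other windows. Over all genes tested, 11099 had a window in the RefSeq table, and of these 3.89% held the response element and 8.51% the gamma-activated site within 300 bases. Of the interferon-gamma list 19 genes had a window, 9 with the response element and 7 with the gamma-activated site. Of the type I interferon list 21 had one, 10 with the response element and 3 with the gamma-activated site. A match of letters describes the window and does not show binding.

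Interferon-induced genes lay lower with stem cells as a group. Of 28 genes of the interferon-gamma response that were tested, 26 had a shared change below 0 and 21 lay below 0 at both times, with a median of -0.66 (-1.04 at 2 h, -0.42 at 5 h). Of 28 type I interferon genes, 27 had a shared change below 0 and 19 lay below 0 at both times, with a median of -0.61 (-0.94 at 2 h, -0.36 at 5 h). Leaving out 1 liver gave medians from -1.13 (without mouse 13) to -0.39 (without mouse 12) for the interferon-gamma response, and from -0.81 (without mouse 13) to -0.44 (without mouse 11) for the type I response. The median over all genes tested was 0.07, and 38.3% of all genes were below 0. By the shared test 1 of 28 interferon-gamma genes fell, Ciita, and 0 of 28 type I interferon genes did. At an unadjusted p under 0.05, 9 of 28 interferon-gamma genes and 13 of 28 type I genes were lower and 0 of either list higher, against 5.45% lower and 9.54% higher of all genes.

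**Figure D2:**
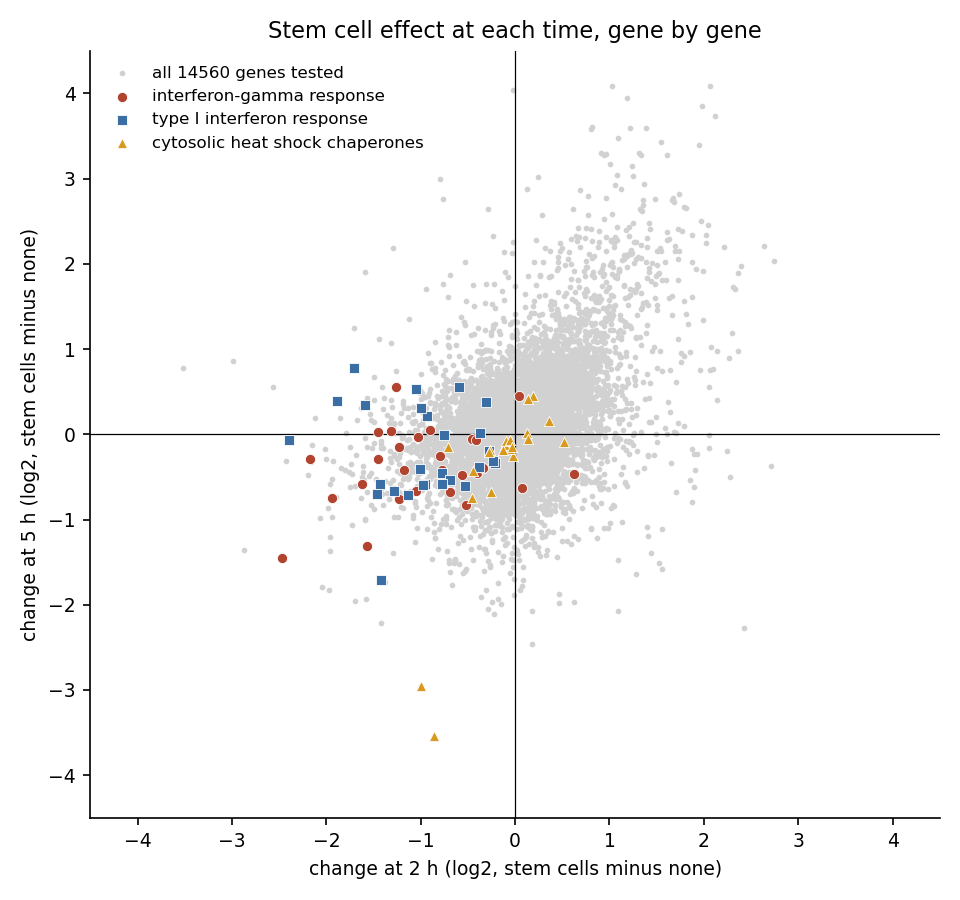
The stem cell effect of each gene at 2 h (horizontal) and at 5 h (vertical), as log2 differences, with stem cells minus without; grey points are all 14560 genes tested, and 3 gene lists are coloured. Most interferon genes lie at the lower left, below 0 at both times, and the 2 lowest heat shock points at 5 h are Hspa1a and Hspa1b.

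The genes of these lists with the smallest p are described next, and they do not stand for all members. At 5 h 23 of 28 interferon-gamma genes and 19 of 28 type I genes lay below 0, and the others did not. Zbp1, an interferon-induced sensor of Z-form nucleic acid, had levels of 1.19, 1.61 and 0.76 at 2 h with stem cells, against 3.12, 3.11 and 1.60 without. At 5 h it had 2.54, 3.10 and 2.37 in livers with stem cells, against 4.68, 4.26 and 4.19 without. At 2 h only mouse 13 among the untreated livers reached into the treated range, and at 5 h the groups were separate. Its shared change of -1.57 ± 0.28 did not pass (adjusted p = 0.141). Wars, the tryptophanyl-tRNA synthetase gene induced by interferon-gamma, had 0.94, 0.90 and 0.70 at 2 h with stem cells, against 1.57, 1.70 and 0.84 without, and 2.62, 2.79 and 2.48 at 5 h in livers with stem cells, against 3.62, 3.34 and 3.42 without. Again the 2 h overlap came from mouse 13, and the change of -0.68 ± 0.15 did not pass (adjusted p = 0.167).

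Herc6, the mouse ligase that attaches ISG15 to proteins, had a shared change of -1.08 ± 0.26, and Isg20, an antiviral exonuclease, one of -0.70 ± 0.18. Trim6, a ubiquitin ligase of interferon signalling, had -1.24 ± 0.21, of which -2.40 at 2 h, where it passed the test of that time alone (adjusted p = 0.0322), and -0.07 at 5 h. Of its 4 probes 3 shared that sign, and the other had the opposite sign. Psmb8, an immunoproteasome subunit, had levels of 3.14, 3.18 and 3.53 at 2 h with stem cells, against 3.74, 3.83 and 3.48 without. The 5 h levels were 4.34, 4.14 and 4.45 with stem cells, against 5.01, 4.63 and 4.65 without. It was lower in all 6 pairs of livers that shared a slide and a time, by 0.43 ± 0.12. Nos2, the inducible nitric oxide synthase, had -1.44 ± 0.36, but it was above background in 0 of 3 treated and 1 of 3 untreated 2 h livers, and its sign turned with normexp correction and the 75th percentile (0.20). None of these passed the shared test (adjusted p = 0.097 to 0.214).

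Without mice 10 and 13 many interferon genes passed. Of the interferon-gamma genes 22 of 28 fell, with a median of -0.85, and of the type I genes 17 of 28 fell, with a median of -0.81. None of either list rose. In that set of 10 livers 434 of all genes fell (2.98%) and 357 rose (2.45%). All 791 (5.43%) had the same sign with all 12 livers, which is likely from the start because the 12 include the 10. Zbp1 fell by 1.71 (adjusted p = 0.00318 in that set), Wars by 0.77, Herc6 by 1.33 and Psmb8 by 0.54. Ccl8, a monocyte chemokine, fell by 1.34, and Il1r1, an interleukin 1 receptor, by 0.87. Leaving out mouse 13 alone gave 10 of 28 interferon-gamma genes and 16 of 28 type I genes lower, among 367 lower genes of 14560 tested. Leaving out mouse 10 alone gave 0 of either list, but there 0 of all genes were lower and 1 was higher. Both livers had been set aside for their inflammatory genes in these same data. Mouse 13 had the lowest interferon-gamma score of the untreated livers (-2.46). Without it alone the median of that list was -1.13, against -0.66 with all 12 livers. The counts of the smaller set are therefore no separate support. With all 12 livers and array weights, 721 genes fell (4.95%) and 982 rose (6.74%). Among the lower ones were 10 of 28 interferon-gamma genes and 19 of 28 type I genes. The weights are estimated from these same values and count livers that scatter from their group for less. The weighted counts are therefore no separate support either.

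**Figure D3:**
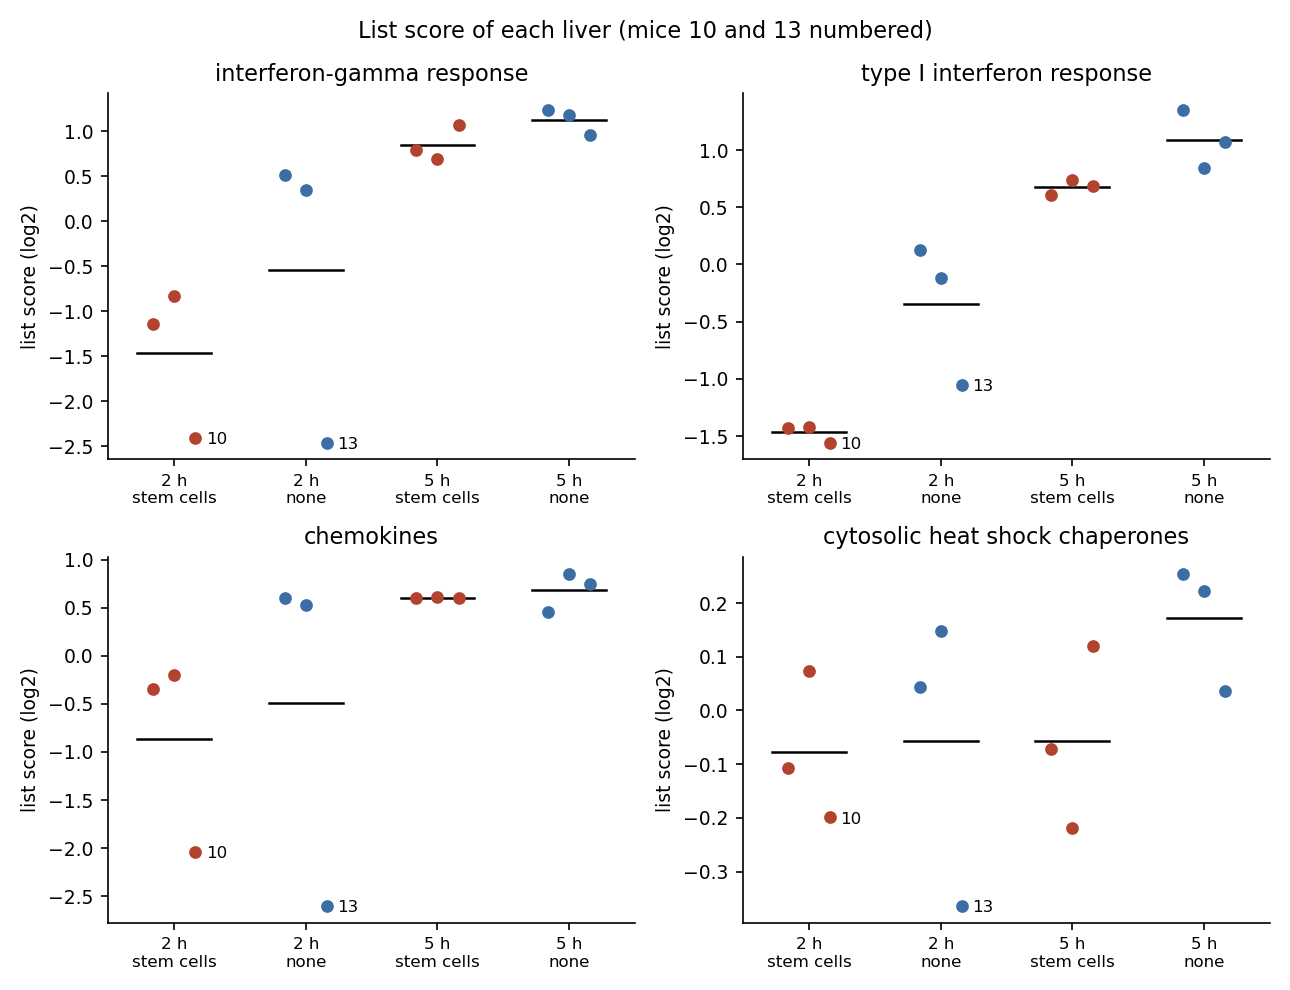
List score of each liver, the median over the list's genes of the log2 level minus the gene's mean over all 12 livers; red points are livers with stem cells, blue points livers without, bars are group means, and mice 10 and 13 are numbered. In the type I list all livers with stem cells lie below all livers without at either time, and in the interferon-gamma list mouse 13 at 2 h and a narrow overlap at 5 h break this order.

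The score of the type I interferon list was -1.43, -1.42 and -1.56 in the 2 h livers with stem cells, against 0.12, -0.12 and -1.05 in those without. At 5 h it was 0.61, 0.74 and 0.69 with stem cells, against 1.35, 0.84 and 1.07 without. This score did not overlap between the groups at either time. The interferon-gamma score was -1.14, -0.84 and -2.41 at 2 h with stem cells, against 0.51, 0.34 and -2.46 without. At 5 h it was 0.79, 0.69 and 1.08 with stem cells, against 1.24, 1.19 and 0.96 without. It overlapped at both times. Slide by slide, the 2 h median of the interferon-gamma list was -1.47 on slide 1, -2.95 on slide 2 and 1.24 on slide 3, the slide of mouse 13 with its partner mouse 9, while the 5 h medians were -0.47, -0.30 and -0.39. The type I list had 2 h medians of -1.12, -1.53 and -0.03 and 5 h medians of -0.64, -0.11 and -0.29 on the same slides. In all, 5 of 6 such slide medians of the interferon-gamma list and 6 of 6 of the type I list were below 0.

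Ifng itself had levels of 1.79, 2.20 and 0.39 at 2 h with stem cells, against 3.34, 2.09 and -0.50 without. At 5 h the levels of Ifng were 2.61, 2.86 and 2.11 in livers with stem cells, against 1.62, 2.04 and 2.33 without. The groups overlapped at both times, and the shared change was 0.17 with a 95% interval of -1.10 to 1.45 (adjusted p = 0.9). Cxcl10 (0.24, interval -2.70 to 3.18) and Cxcl9 (-0.64, interval -3.05 to 1.77), chemokines that attract activated T cells, had intervals on both sides of 0, and mice 10 and 13 lay far below the other 2 h livers in both genes. The 5 h levels of Cxcl10 were 9.96, 9.61 and 9.92 with stem cells, against 9.43, 9.57 and 9.15 without. For Cxcl9 they were 8.93, 8.67 and 9.01 with stem cells, against 9.07, 8.90 and 8.51 without. At that time the groups overlapped in Cxcl9 but were separate in Cxcl10. Without these 2 livers Cxcl9 fell by 0.94 (adjusted p = 0.019 in that set) and Cxcl10 had -0.13.

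Tnf had a shared change of -0.71 (interval -2.13 to 0.70), with levels of -0.18, -0.21 and -0.50 at 5 h with stem cells, against 0.46, 1.07 and 0.96 without. At 2 h its groups overlapped, and at 5 h they were separate. It fell by 0.93 without mice 10 and 13 (adjusted p = 0.023 in that set). Il6 had 1.30 (interval -0.79 to 3.39), Il4 -0.30 (interval -1.91 to 1.31), Il1b 0.46 (interval -1.08 to 2.00) and Ccl2 -0.39 (interval -2.81 to 2.02). Il10, an anti-inflammatory cytokine, had levels of -3.12, -2.81 and -2.24 at 2 h with stem cells, against -4.35, -4.43 and -4.14 without, and was at least 2.636-fold higher at that time without passing (adjusted p = 0.138). At 5 h its levels overlapped (-4.56, -3.77 and -3.89 in livers with stem cells, against -3.89, -4.38 and -4.18 in livers without), and the shared change of 0.83 ± 0.19 did not pass (adjusted p = 0.167). Fasl had -0.19 (interval -0.79 to 0.40), with 1 of 2 probes of this sign. Of 19 genes of T cell cytokines and activation 10 were above 0, with a median of 0.01, and 0 passed. Ltb, the lymphotoxin gene that shapes lymphoid tissue, had -0.78 ± 0.24, and Il12a, a subunit of interleukin 12, 1.16 ± 0.47. The chemokine list had 18 of 26 genes below 0 and a median of -0.21, and its member Cxcl12, a chemokine of stromal cells, had 0.49 ± 0.16. Myeloid cytokines and NF-kB targets had 14 of 22 below 0 and a median of -0.22, with Ptgs2, the inducible prostaglandin synthase, at -1.03 ± 0.56. The sign of both medians turned when single livers were left out: that of the chemokines was 0.17 without mouse 10 and 0.18 without mouse 11, and that of the myeloid cytokines 0.21 without mouse 10 and 0.05 without mouse 11. No gene of these lists passed.

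**Figure D4:**
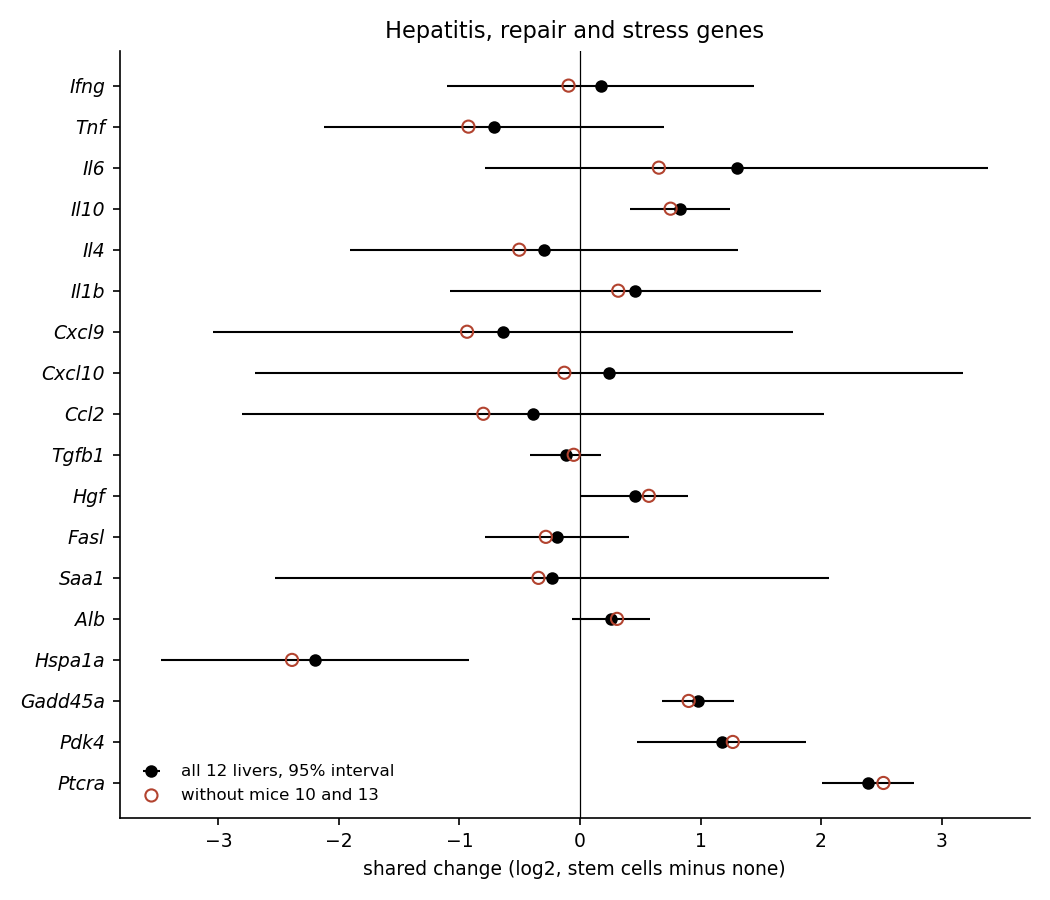
Shared change of hepatitis, repair and stress genes over 12 livers (black, with 95% intervals of the limma fit) and without mice 10 and 13 (open red), as log2 differences, with stem cells minus without. Intervals are widest for Cxcl10, Ccl2 and Cxcl9, and those of Ptcra, Gadd45a, Il10, Pdk4, Hspa1a and Hgf do not reach 0; of these Ptcra alone passed after adjustment over all genes.

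Stress chaperones of the cytosol were led by the inducible Hsp70 genes. Hspa1a had levels of -1.48, -2.00 and -2.56 at 2 h with stem cells, against -0.13, -0.87 and -2.47 without. By 5 h the gene had -1.11, -1.10 and 1.03 in livers with stem cells, against 4.63, 2.00 and 2.82 without. The 5 h groups were separate and the 2 h groups overlapped. Its shared change was -2.20 ± 0.58 (adjusted p = 0.205) and that of Hspa1b, whose transcript is nearly identical so that the probes may share signal, was -1.97 ± 0.48 (adjusted p = 0.193), and neither passed. Chordc1 (-0.44 ± 0.11) and Hsph1 (-0.60 ± 0.19), partners of Hsp90 and Hsp70, did not pass either. The list had 15 of 21 genes below 0 and a median of -0.12, and 0 of 21 passed. That median was -0.05 without mouse 12, -0.20 without mouse 13 and -0.34 with normexp correction and the 75th percentile.

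The unfolded protein response of the endoplasmic reticulum had 20 of 24 genes below 0 and a median of -0.27 (0.03 at 2 h, -0.50 at 5 h). Creld2 (-0.84 ± 0.28), Dnajb9 (-0.66 ± 0.23) and Syvn1 (-0.53 ± 0.19), which help fold or degrade secretory proteins, had the smallest p among its lower members, and 0 of 24 passed. Its score at 5 h was -0.15, -0.15 and -0.03 with stem cells, against 0.51, 0.50 and 0.39 without. Chac1, a target of the same stress pathway, had 0.69 ± 0.26 and so lay on the other side.

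Gadd45a, which responds to growth arrest and DNA damage, came close to the threshold (0.98 ± 0.14, adjusted p = 0.0509). Its levels were 3.57, 3.72 and 3.52 at 2 h with stem cells, against 3.62, 3.34 and 2.89 without, and the groups overlapped. At 5 h they were 4.35, 4.33 and 4.76 with stem cells, against 2.83, 2.94 and 2.78 without, with no overlap. Of the 22 p53 targets and growth arrest genes 12 were above 0, with a median of 0.10 that turned to -0.03 when scaled to the array median. Cell cycle genes had 11 of 22 above 0 and a median of -0.0022, and immediate early genes 10 of 22 and a median of -0.02.

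Beyond these, genes with small p that did not pass were Gpr65, a proton-sensing receptor of immune cells (0.61 ± 0.10), Gpat3, an enzyme of triglyceride synthesis (0.59 ± 0.11), the endogenous retroviral gene Erv3 (2.56 ± 0.47), Sbsn (0.64 ± 0.12), Ccbe1, which is required for lymphatic vessels (0.67 ± 0.13), and 0610040B10Rik on the higher side. In 0610040B10Rik 0 of 3 untreated 5 h livers lay above background, and it was at least 1.198-fold higher at 5 h. On the lower side they were Zfc3h1, a factor of nuclear RNA decay (-1.08 ± 0.15), Khdc4 (-1.06 ± 0.16), Gga3, which sorts cargo from the Golgi (-0.75 ± 0.12) and the Mediator subunit gene Med20 (-0.71 ± 0.12). Their adjusted p ran from 0.0509 to 0.167, and the groups did not overlap at either time in Gpr65, Sbsn, 0610040B10Rik, Zfc3h1, Khdc4, Gga3 and Med20. Erv3 had levels of -1.13, -2.77 and -1.08 at 5 h with stem cells, against -5.08, -6.25 and -5.94 without, where it was not above background, and was at least 6.253-fold higher at that time without passing (adjusted p = 0.123).

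Genes were also counted by the order of the livers alone. Of 14545 genes with a value in all 12 livers, 133 (0.914%) had all treated livers above all untreated livers at both times and 98 (0.674%) had them below, 231 (1.59%) in all, while 57 (0.392%) were separate at both times in opposite directions. Separation at 2 h, whatever the 5 h values, was found in 8.19% of genes, and at 5 h in 22.2%. Within all 6 pairs of livers of a slide and time, 6.63% of genes were higher and 2.97% lower with stem cells. Of 28 interferon-gamma genes, 2 were lower without overlap at both times, Ciita and Nos2, and of 28 type I interferon genes 0 were. In the list of T cell markers 2 of 19 genes were higher in this way, Ptcra and Cd3g, and 1 was lower, Cd8a. Of these, Nos2 was well above background in 6 of 12 livers, Cd8a in 7 and Ptcra in 3, so their order rests partly on signals below background. Among genes well above background on all 12 livers 60.0% had a shared change above 0, against 69.0% of the 2782 dimmer genes, a shift that went along with the dimmer treated arrays. Its part in the higher calls was not tested. Across all genes, the 2 h and 5 h effects had a correlation of 0.43, or 0.35 over the 11778 genes well above background on all 12 livers. The 2 effects share slides but no livers, and genes are not independent replicates.

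Metabolic genes of the hepatocyte had small changes, and the medians of several lists turned sign with normexp correction and the 75th percentile. Of 25 genes of cytochromes P450 and bile acids 22 had a shared change above 0, against 61.7% of all genes. Their median was 0.20 (-0.04 with normexp correction and the 75th percentile). At both times 18 of them were above 0, and the share of all genes above 0 at both times was not counted. Cyp1a1 had levels of -3.24, -2.78 and -2.72 at 2 h with stem cells, where it was above background in 3 of 3, against -4.56, -4.99 and -4.30 without. It was at least 2.402-fold higher at 2 h without passing (adjusted p = 0.0823 at that time), and at 5 h it lay below background in all livers. Ppargc1a, a coactivator of gluconeogenesis and mitochondrial genes, had 1.70, 1.22 and 0.79 at 2 h with stem cells, against 0.20, 0.08 and 0.08 without. Its 5 h levels were -0.23, -0.04 and -0.75 with stem cells, against -1.52, -0.69 and -1.29 without, with a small overlap. The shared change was 0.97 ± 0.20 (adjusted p = 0.167). Pdk4, which restrains glucose oxidation, had a shared change of 1.18 ± 0.32, from -0.29 at 2 h and 2.64 at 5 h (adjusted p = 0.209).

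No lipid or glycogen gene passed. Plin5, a lipid droplet protein, had 0.74 ± 0.21. Ppp1r3g, which targets a phosphatase to glycogen, had 2.42 ± 0.79. Of 24 genes of PPAR alpha and fatty acid oxidation 19 were above 0 (median 0.07, -0.11 at 2 h and 0.23 at 5 h), and of 17 of gluconeogenesis and glycogen 13 were (median 0.13), where the median of all genes was 0.07. With normexp correction and the 75th percentile these medians were -0.18 and -0.14. The clock output gene Hlf had 0.69 ± 0.21, in a list with 13 of 18 genes above 0 and a median of 0.14. Antioxidant and metallothionein genes had 18 of 20 above 0 (median 0.16, or -0.10 with that correction), and genes of cholesterol synthesis 15 of 22 (median 0.09, or -0.15 with it and -0.01 without mice 10 and 13). The hepatocyte growth factor gene Hgf had 0.45 ± 0.20 (adjusted p = 0.325). The acute phase list had 21 of 28 genes below 0 and a median of -0.23 (-0.48 without mouse 13 and -0.00038 without mouse 12), with A2m at -1.06 ± 0.36, which was below background in all 6 livers at 2 h, and Saa1 at -0.23 (interval -2.53 to 2.07).

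**Figure D5:**
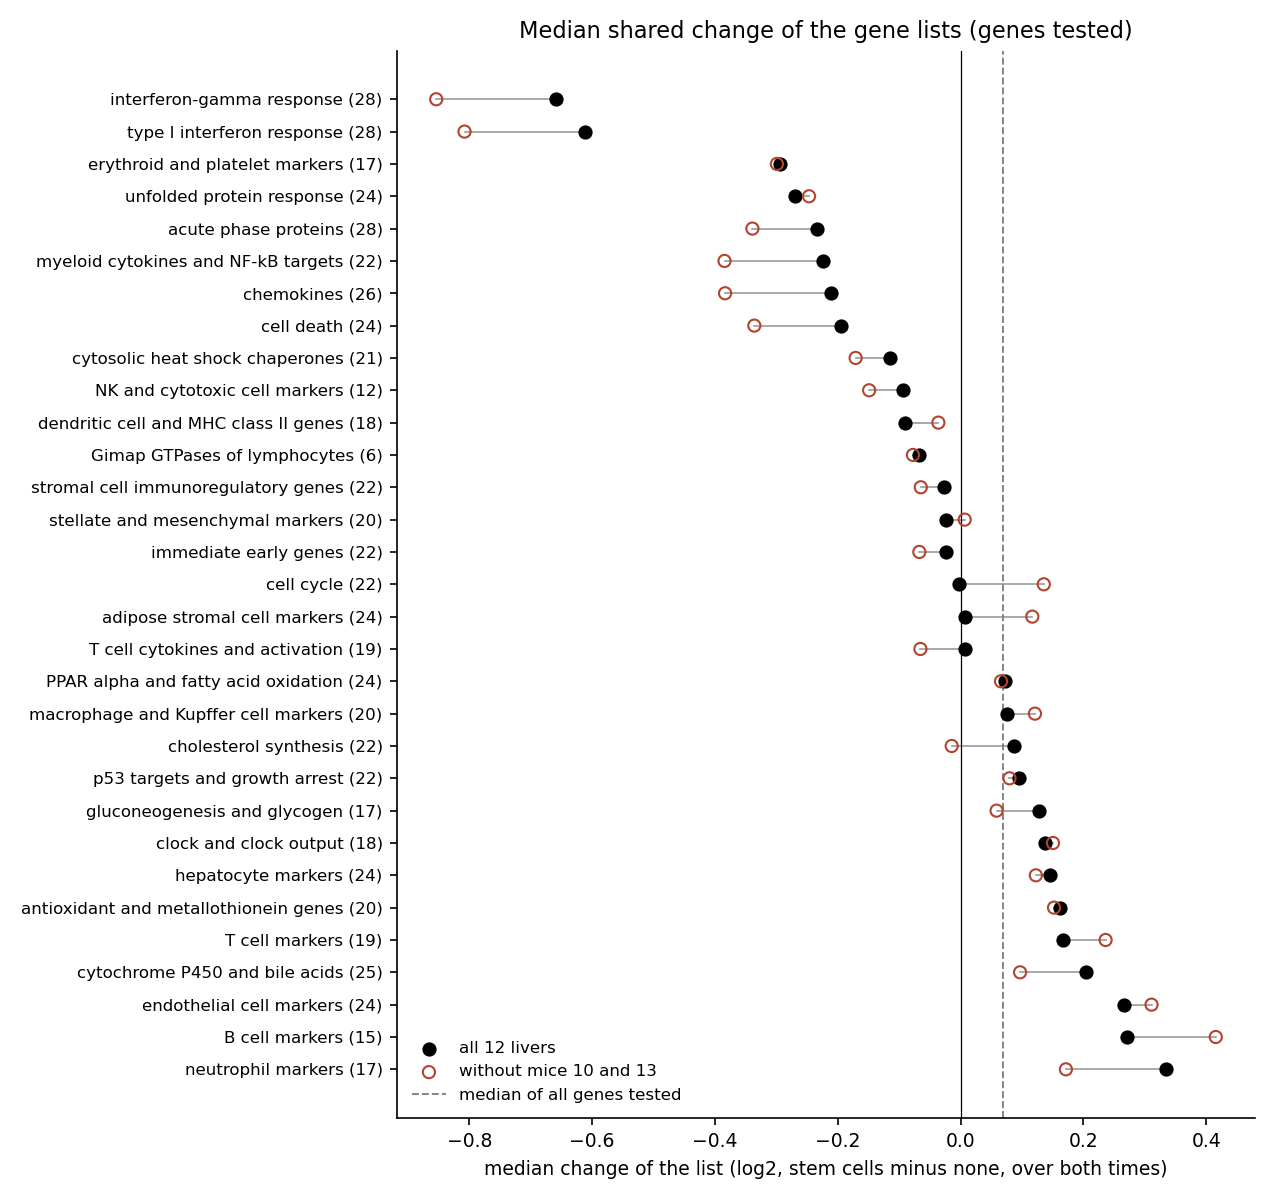
Median shared change of each of the 31 gene lists, with the number of genes tested in brackets, as log2 differences, with stem cells minus without; black points use all 12 livers, open red points leave out mice 10 and 13, and the dashed line is the median of all genes. The interferon lists lie farthest from it, at -0.66 and -0.61, and at -0.85 and -0.81 without these 2 livers. The 2 livers were set aside for their inflammatory genes in these same data.

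Markers of the liver's cell types were examined because the tissue is a mixture, in which fewer cells of a type and less RNA per cell cannot be told apart. The 6 defining hepatocyte markers were above background on all 12 livers and summed to 2380 to 3551 times the array's 75th percentile with stem cells, against 2102 to 2967 without. Alb had a shared change of 0.26 ± 0.15 (adjusted p = 0.412), and the hepatocyte list had 21 of 24 genes above 0 with a median of 0.15 (-0.10 with normexp correction and the 75th percentile). Endothelial markers had 20 of 24 genes above 0 and a median of 0.27 (0.07 at 2 h, 0.36 at 5 h). Kdr, a receptor of vascular growth factor, had 0.59 ± 0.19 and Clec4g, of sinusoidal endothelium, 0.45 ± 0.15. The 6 defining endothelial markers summed to 31.3 to 50.5 with stem cells, against 20.2 to 44.5 without, so the ranges overlapped. Their median shared change was 0.07, where that of all genes was 0.07 as well. B cell markers had a median of 0.27 with 11 of 15 above 0, among them Cd37 (0.85 ± 0.31) and Cd79a. In 0 of 3 untreated 5 h livers was Cd79a above background, and it was at least 1.305-fold higher at 5 h. The 5 defining B cell markers summed to 1.26 to 2.11 with stem cells, within the range of 0.845 to 3.75 without. No gene of these lists passed.

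Markers of inflammatory cells had no common direction. Neutrophil markers had a median of 0.33 (-0.01 without mouse 13) with 12 of 17 above 0, and the 5 defining ones summed to 35.3 to 238 with stem cells, against 14.5 to 202 without. S100a9, a neutrophil granule protein, had 0.54 ± 0.42 and the antimicrobial peptide gene Camp 0.73 ± 0.33. T cell markers had a median of 0.17 with 13 of 19 above 0, and Ptcra was the only one of the 19 to pass. The receptor chain gene Cd3g had 0.64 ± 0.17 and did not pass (adjusted p = 0.205). The coreceptor gene Cd8a was above background in 0 of 3 treated and 2 of 3 untreated 2 h livers and was at least 1.596-fold lower at 2 h. Its shared change did not pass (adjusted p = 0.209), and its sign turned to 0.26 with normexp correction and the 75th percentile. The 6 defining T cell markers summed to 1.29 to 1.75 with stem cells, against 1.35 to 1.64 without. Macrophage and Kupffer cell markers had a median of 0.08 and NK cell markers one of -0.09, with signs turned to -0.05 and 0.19 by the same correction. Ccr2, a chemokine receptor of monocytes, was well above background in 3 of 6 livers with stem cells and in 0 of 6 without. Its level was higher by a factor of at least 1.432 and did not pass (adjusted p = 0.193).

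Dendritic cell and MHC class II genes, which include the targets of Ciita, had 10 of 18 below 0 and a median of -0.09, made of -0.43 at 2 h and 0.25 at 5 h. Ciita was the only one of the 18 to pass. Itgax, the integrin CD11c, had -0.60 ± 0.14 by its brightest probe, with 1 of 2 probes of this sign. The red cell genes Hba-a1 and Alas2 did not overlap between the groups at 2 h, and neither passed. They were picked by small p from a list with 17 genes tested, and 8.19% of all genes were separate at 2 h. Hba-a1, an alpha globin gene, had 6.42, 6.04 and 6.48 at 2 h with stem cells, against 7.82, 7.29 and 7.68 without. The 5 h levels were 7.76, 8.10 and 7.83 with stem cells, against 7.90, 7.78 and 7.61 without. The shared change of -0.58 ± 0.13 did not pass (adjusted p = 0.170), and the list of erythroid and platelet markers had a median of -0.45 at 2 h and 0.07 at 5 h, and one of -0.30 over both that turned to 0.03 with normexp correction and the 75th percentile. Alas2, the first enzyme of red cell haem synthesis, had -0.94 at 2 h and 0.04 at 5 h.

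Markers of the infused cell type were counted as well. Of 24 markers of adipose stromal cells 12 were above 0 and 12 below, with a median of 0.01, and 0 passed (1 at an unadjusted p under 0.05). The 7 defining ones summed to 10.4 to 12.7 with stem cells, against 11.1 to 13.9 without. These genes are also expressed by the liver's own fibroblasts. Stellate and mesenchymal markers had 11 of 20 genes below 0 and a median of -0.02. Of 22 genes by which stromal cells are known to restrain immune cells 11 were above 0, with a median of -0.03. Tgfb1, an immunosuppressive cytokine, had -0.12 (interval -0.42 to 0.18), and Nt5e, which makes adenosine, 0.46 ± 0.17 (adjusted p = 0.273). Mlkl, the effector of necroptosis, had -0.75 ± 0.26 with all 12 livers (adjusted p = 0.263) and fell by 1.00 without mice 10 and 13 (adjusted p = 0.00519 in that set), in a cell death list with 18 of 24 genes below 0 and a median of -0.19.

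The effects at the 2 times were also compared with each other. By the test of the difference 2 of 14560 genes (0.0137%) passed, Gimap5 and Tnfrsf23, which encodes a TNF-family receptor that binds its ligand without signalling. Tnfrsf23 had levels of -6.51, -6.29 and -6.53 at 2 h with stem cells, not above background, against -3.85, -3.60 and -4.20 without. The 5 h levels of Tnfrsf23 were -2.53, -2.70 and -2.19 in livers with stem cells, against -2.59, -3.41 and -3.09 without, where the groups overlapped. Its fitted difference of 3.12 ± 0.33 (adjusted p = 0.0331) rests on signals below background at 2 h, where the gene was at least 1.337-fold lower. None of Trim34a, Ciita and Ptcra passed that test (adjusted p = 0.9996 for each), with differences of -0.10 ± 0.35, 0.47 ± 0.26 and -0.71 ± 0.35. Each time alone gave few calls, 4 genes (0.0275%) at 2 h, which were Ptcra on the higher side (0.00687%) and D330040H18Rik, Trim6 and Tnfrsf23 on the lower (0.0206%). At 5 h there were 5 genes (0.0343%), with 3 higher (0.0206%), which were Ptcra, Gimap5 and Gadd45a, and 2 lower (0.0137%). Ptcra was not well above background in any 5 h liver, and the call of Gimap5 rests on 1 of its 2 probes. Gimap5 had a difference of 2.01 ± 0.23 (adjusted p = 0.0371).

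Hepatic inflammatory cells at 5 h, 2 samples with stem cells at 3 h and 2 without, offered the same genes in other samples. For the untreated pair the source label mentions stem cells while the treatment and description labels do not, and they were used as untreated. The labels do not say whether the 2 samples of a group came from separate mice. In these cells 1 of 13050 genes passed (0.00766%) and 24 of 27 interferon-gamma genes tested lay below 0, with a median of -1.63, while 16 of 28 type I genes did, with a median of -0.23. Over all genes tested in the cells 46.1% were below 0 and the median was 0.06. Of 19 genes of T cell cytokines and activation 17 lay below 0 in the cells (median -1.43), and of 21 cytosolic heat shock chaperones 16 (median -1.05). Zbp1 levels were 1.96 and 1.91 in cells with stem cells, against 4.24 and 2.76 in those without (-1.57 ± 0.53, adjusted p = 0.211). Ciita had -0.38 ± 0.43 and Trim34a 0.07 ± 0.36, so that neither gene showed in the cells a difference beyond its error. Ifng had 4.05 and 4.37 in the cells with stem cells, against 6.96 and 7.37 without (-2.95 ± 0.36, adjusted p = 0.0898), where the whole livers gave 0.53 ± 0.81 at 5 h. None of the genes named in this paragraph passed in the cells.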

How the data were processed

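Liver RNA was hybridised to Agilent mouse 1-colour arrays of 43379 spots, 1639 of them controls. The deposited intensity values are the processed signals of Agilent Feature Extraction 10.5.1.1, per the submitters' processing notes and the file headers, and the deposited value table was identical to them. From these, log2 signal minus each array's 75th percentile was computed, outlier spots were left out, and probes well above background on at least 3 of 12 livers were kept, with the brightest probe standing for its gene. Probes were named through their accession or symbol in RefSeq, and otherwise by the array design. Probe positions are those of the file headers' build, mm8.

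Groups came from the labels. The 4 group means were fitted with limma 3.58.1 in R 4.3.3. The shared change is the mean of the 2 h and 5 h differences, tested over 14560 genes with Benjamini-Hochberg adjustment at 0.05, and every adjusted p is from such a fit. The standard errors share 1 variance per gene over the 12 livers. The mice are numbered separately in the labels, and p-values measure the spread between them. The script was tested on simulated data.

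The genes described, the 31 gene lists and the alternatives were chosen with earlier results of these data known. Named genes are those that passed, up to 10 per direction with the smallest p among genes well above background on at least 6 livers with the same sign at both times, up to 4 members of each list with the smallest p, and a fixed panel, of which Il12b was not tested. Some of these genes are not reported here. Where no array of a group had the gene well above background, a bound is given in place of a fold (none where it was under 1 or both groups were below background), the bright group's mean against the lowest signal well above background on the dim group's arrays. Arrays carry no read depth, and the number of livers limits the precision. Alternatives covered the background correction, scaling, filter, probe choice, slide block, array weights, the variance model and each liver left out.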

Additional observations from a re-analysis of the deposited data

Results flagged for a closer look

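Gimap5 was singled out because its stem cell effects at the 2 times differed by the test of the difference itself, by 2.01 ± 0.23 (limma, adjusted p = 0.0371), with a change of -0.11 at 2 h and 1.90 at 5 h. Its other probe had -1.0 at 2 h and -0.04 at 5 h. Tnfrsf23 was singled out for the same reason, with a difference of 3.12 ± 0.33 (limma, adjusted p = 0.0331), a change of -2.56 at 2 h and of 0.56 at 5 h. At 2 h its signal was not above background in any of the 3 livers with stem cells. With normexp correction and the 75th percentile the difference of Tnfrsf23 was -0.14.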

How the results depend on the processing

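The count of 6 genes for the shared change was 0 with normexp correction and the 75th percentile (2080 at an unadjusted p under 0.05), 1 with no filter on dim probes, 2 with the slide as a block, 3 in an additive model, 2 with the mean of a gene's probes, 1703 (11.7% of genes) with array weights and 791 without mice 10 and 13. It was 5 with normexp and quantile normalization, 5 with quantile normalization, 6 with the array median, 7 for probes above background on all 12 livers and 8 with a trended variance. Leaving out 1 liver gave 1 to 618 genes, with 618 without mouse 13 and 29 without mouse 2. Scaling to the array median moved the median of all genes to -0.05, against 0.07, and the split to 1 higher and 5 lower, against 3 and 3. The 2 genes for the difference between times became 0 with normexp and the 75th percentile (229 at an unadjusted p under 0.05), 0 with the array median (622), 0 with no filter (768), 0 with the slide block (776), 1 with normexp and quantile normalization, 1 on probes above background on all 12, 1 with the trended variance, 1 with the mean of probes, 3 with quantile normalization, 25 with array weights and 73 without mice 10 and 13, and 0 to 22 when 1 liver was left out.

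With normexp correction and the 75th percentile the sign turned for Tnfrsf23 (0.42, and its difference -0.14), Ifng (-0.028), Cxcl10 (-0.050), Tgfb1 (0.0097), Fasl (0.40), Alb (-0.0023), Nos2 (0.20) and Cd8a (0.26). With array weights it turned for Ifng (-0.00056) and Cxcl10 (-0.0019), and without mice 10 and 13 for Ifng (-0.095) and Cxcl10 (-0.13). Leaving out 1 liver gave ranges across 0 for Ifng (-0.36 to 0.60), Il4 (-0.90 to 0.10), Il1b (-0.15 to 0.92), Cxcl9 (-1.64 to 0.061), Cxcl10 (-0.985 to 1.1), Ccl2 (-1.435 to 0.24) and Saa1 (-1.11 to 0.53). Of 86 genes chosen by the rule for named genes, 73 kept their direction under every alternative run. The cause of these changes was not tested. No paired analysis was possible because the mouse numbers are not shared between the groups, and the slide block is given in its place. Dim probes limit the precision for Ptcra, Ifna5, Tnfrsf23, Il10, Cyp1a1 and Ccr2.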
